A study of Mus musculus with 4 samples.

Results

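The genes described here present peptides to T lymphocytes, and their RNA was followed across the cell types of the mouse liver by single-nucleus RNA-seq. The list holds 10 genes chosen by name and not by any measured value: H2-Aa, H2-Ab1, H2-Eb1, Cd74 and Ciita of the major histocompatibility complex (MHC) class II pathway, and H2-K1, H2-D1, B2m, Nlrc5 and Tap1 of the class I pathway. All 10 were among the 32285 mouse genes of the deposited count tables. There were 4 libraries of liver nuclei, 1 for each group. Values are given throughout with the CD pair first, control before oncogene as labelled, and then the LPD pair in the same way. CD is a chow diet and LPD a low-protein diet. All mice were of the Bl/6 strain, were fed 1 of these diets for 1 week, received plasmids by hydrodynamic tail vein injection and stayed on the same diet for 2 more weeks. In the oncogene groups the plasmids carried human c-MET and β-catenin with the Sleeping Beauty transposase, which integrates them into the genome of hepatocytes, and per the study the controls received the vector without them. The livers were frozen before nuclei were isolated, so RNA was counted in isolated nuclei and not in whole cells. Mitochondrial RNA, and hepatocyte marker RNA in other cell types, were counted too, as given below. Mice for tumour work in vivo were male and aged 6 to 8 weeks unless stated otherwise, and the methods of these libraries name no other age. How many mice went into a library is not given in the sources used here.

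MHC class I molecules consist of a heavy chain, here H2-K1 or H2-D1, and the light chain B2m. They show peptides from inside the cell, which the Tap1 and Tap2 transporter brings into the endoplasmic reticulum, to CD8+ T cells, and Nlrc5 is a transactivator of their genes. Nearly all nucleated cells carry class I. MHC class II molecules, made of an alpha chain such as H2-Aa and a beta chain such as H2-Ab1 or H2-Eb1, show peptides from taken-up material to CD4+ T cells. Cd74, the invariant chain, holds the place of the peptide until loading, and Ciita is the transactivator that class II genes require. Class II is typical of dendritic cells, B cells and macrophages. In the liver the resident macrophages are the Kupffer cells, and the sinusoidal endothelium and stellate cells have also been described as antigen presenting.

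The human transgenes, which mark the injected oncogenes, did not follow the labels of the CD libraries. Of transgene UMIs (unique molecular identifiers, each marking 1 captured RNA molecule), the library labelled CD control had 100, the library labelled CD oncogene 0, the library labelled LPD control 0 and the library labelled LPD oncogene 6. The CD libraries held 10397 nuclei under the control label and 12552 under the oncogene label after the study's filter. The study gives the larger number of nuclei for its CD control group, so this order also goes against the CD labels. Results are therefore given by the library's label, and each contrast within a diet is read with these counts beside it. In all 42877 nuclei remained, between 9825 and 12552 in a library. The median nucleus held 3807, 3294, 1962 and 1762 UMIs, and the median mitochondrial share of its UMIs was 2.42%, 0.983%, 0.100% and 0.127%, so diet, depth and mitochondrial share cannot be told apart. Of the 44010 deposited barcodes, 179 occurred in 2 libraries.

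Nuclei were assigned to cell types by marker genes, none of which is a member of the list. Hepatocytes made up 26625 nuclei, sinusoidal endothelial cells 2102, Kupffer cells 1100, stellate cells 1017, B cells 775 and T cells 193, each with at least 20 nuclei in all 4 libraries. In the 5 types other than hepatocytes, all 5 check markers that the gates had not used were at least 3-fold higher than in the rest of the gated nuclei, in every library. The 5 hepatocyte check markers were higher in hepatocyte nuclei in every library, but by less than 3-fold except Hnf4a in both LPD libraries. Apoa1 differed least, at 1255 CPM in hepatocyte nuclei and 1210 CPM in the other types of the library labelled CD oncogene. In the smaller sets described below 4 or 5 of 5 were, and all 3 in mesothelial nuclei. Smaller sets with at least 20 nuclei were conventional dendritic cells, with 26 nuclei in the library labelled CD oncogene and 26 in that labelled LPD oncogene, and monocytes, with 26 in the latter. Plasmacytoid dendritic, natural killer (NK), vascular endothelial, cholangiocyte and mesothelial nuclei reached 20 in 2 or 3 libraries. A further 10214 nuclei, 23.8% of all, passed no gate and were not used. Levels are CPM, the summed UMIs of a gene over the nuclei of a type in a library for every 1000000 UMIs of those nuclei. The 95% intervals given are exact and cover counting error only. With 1 library per group there is no replicate check, and nuclei of 1 library are not replicates of its group.

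RNA of hepatocyte markers was counted in the other types too. As a share of the level in hepatocytes, the hepatocyte gate markers stood at 64.0%, 69.7%, 28.5% and 20.6% in Kupffer nuclei and at 90.5%, 84.2%, 30.4% and 22.3% in B nuclei. This background was higher in both CD libraries than in both LPD libraries, and its UMIs count in the total by which CPM is scaled. Its part in a difference between diets was not tested.

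Most members lie close together on mouse chromosome 17. In GRCm38, with the GENCODE vM21 annotation, H2-K1 spans chr17:33996017-34000347, Tap1 chr17:34187553-34197225, H2-Ab1 chr17:34257689-34269419, H2-Aa chr17:34282744-34287823, H2-Eb1 chr17:34305867-34316674 and H2-D1 chr17:35262730-35267499. Ciita lies at chr16:10480059-10528418, B2m at chr2:122147686-122153083 and Nlrc5 at chr8:94434356-94527272. On the opposite strand Tap1 overlaps Psmb9, Ciita overlaps Dexi, B2m overlaps Patl2, H2-Eb1 overlaps Gm20513 and Nlrc5 overlaps 9330175E14Rik. Whether counting used the strand is not given in the sources used here, so reads of such pairs may not be told apart.

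Genes of each class are known to share short promoter elements, so promoters of members compared below are shown. They are the 150 bases before the RefSeq start on GRCm38.p6, 5′ to 3′ along the gene, for 5 of the 6 members with an entry in the table used. Capitals mark the motifs searched for on both strands. The RefSeq start of H2-D1 lies inside the GENCODE gene span. The motifs were chosen after these sequences had been searched.
H2-Aa, chr17:34287824-34287973, minus strand: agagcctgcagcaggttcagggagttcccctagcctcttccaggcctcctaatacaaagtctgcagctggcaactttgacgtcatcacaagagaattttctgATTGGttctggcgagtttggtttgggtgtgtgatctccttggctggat
H2-Eb1, chr17:34305717-34305866, plus strand: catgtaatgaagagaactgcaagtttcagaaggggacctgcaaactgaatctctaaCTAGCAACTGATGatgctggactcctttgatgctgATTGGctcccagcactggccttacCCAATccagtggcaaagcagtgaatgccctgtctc
H2-K1, chr17:34000348-34000497, minus strand: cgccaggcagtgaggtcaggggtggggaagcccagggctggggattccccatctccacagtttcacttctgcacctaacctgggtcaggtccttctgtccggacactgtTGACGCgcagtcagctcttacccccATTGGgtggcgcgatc
H2-D1, chr17:35262944-35263093, plus strand: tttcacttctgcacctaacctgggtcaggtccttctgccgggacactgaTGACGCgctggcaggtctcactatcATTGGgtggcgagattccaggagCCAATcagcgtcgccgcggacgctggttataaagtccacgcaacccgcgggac
B2m, chr2:122147537-122147686, plus strand: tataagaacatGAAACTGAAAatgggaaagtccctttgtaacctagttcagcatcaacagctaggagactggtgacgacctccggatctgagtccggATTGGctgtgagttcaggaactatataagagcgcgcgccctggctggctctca

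The letters CCAAT, or ATTGG on the other strand, occurred in all 5 of these windows and in 24.5% of the 32851 promoters of the table. Both class I heavy chains held TGACGC upstream of ATTGG, a hexamer found in 4.57% of promoters. In H2-Eb1 an X box pattern stood 94 to 82 bases before the start, upstream of ATTGG, and 0.116% of promoters held it. An interferon-stimulated response element pattern, shown in B2m, was in 1.59% of promoters, and none of the 4 motifs was in the Tap1 window. A match describes letters only and is no evidence of binding.

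MHC class II RNA was concentrated in conventional dendritic, monocyte, B and Kupffer nuclei. Summed over H2-Aa, H2-Ab1, H2-Eb1 and Cd74, the class II level in conventional dendritic nuclei was 1307 CPM (985–1701) in the library labelled CD oncogene and 2590 CPM (2037–3246) in that labelled LPD oncogene. In B nuclei it was 729 CPM (643–824), 477 CPM (358–624), 1612 CPM (1413–1831) and 1286 CPM (1144–1440). In Kupffer nuclei it was 246 CPM (185–321), 599 CPM (489–725), 653 CPM (554–764) and 275 CPM (238–315). Hepatocyte nuclei, which should lack class II, held 9.67, 7.14, 11.9 and 12.3 CPM. Every Kupffer and B value lay well above every hepatocyte value, while Kupffer and B values overlapped.

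Against hepatocyte nuclei of the same library the B level was higher by a log2 ratio of 6.24, 6.06, 7.08 and 6.71, and the Kupffer level by 4.67, 6.39, 5.78 and 4.48. The order of these leading types was not the same in all libraries. B nuclei exceeded Kupffer nuclei by a log2 ratio of 1.57 (1.14 to 2.02), 1.30 (1.01 to 1.61) and 2.23 (1.96 to 2.49) in every library but that labelled CD oncogene. There the log2 ratio was −0.33 (−0.83 to 0.16), and the types did not differ beyond counting error. Conventional dendritic nuclei exceeded B nuclei by 1.45 (0.88 to 2.03) under the label CD oncogene and by 1.01 (0.63 to 1.38) under LPD oncogene.

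**Figure D1:**
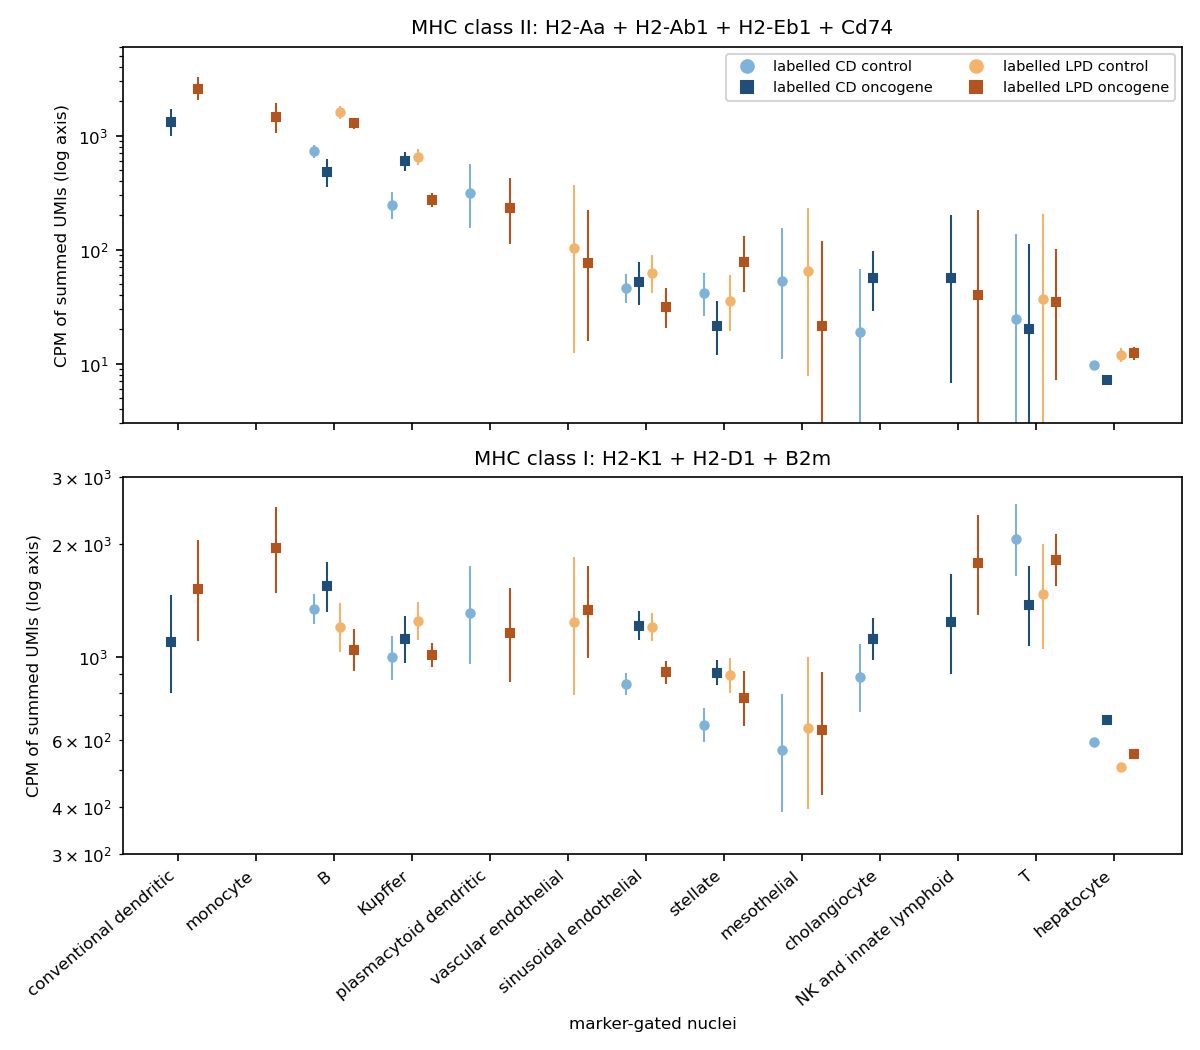
Summed CPM (log axes) of the class II genes H2-Aa, H2-Ab1, H2-Eb1 and Cd74 (top) and of the class I genes H2-K1, H2-D1 and B2m (bottom) in each marker-gated cell type with at least 20 nuclei; points are libraries by label and bars are 95% counting intervals, cut off at the lower edge where they reach further. Class II spans from 7.14 CPM in hepatocyte nuclei to 2590 CPM in conventional dendritic nuclei, whereas class I spans from 509 to 2055 CPM.

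The share of nuclei with a class II UMI gave the same picture. It was 69.2% and 76.9% in conventional dendritic nuclei, 54.4%, 41.2%, 73.6% and 60.2% in B nuclei and 25.7%, 39.3%, 36.3% and 20.6% in Kupffer nuclei. Hepatocyte nuclei, which had the deepest counts at medians of 2712 to 5558 UMIs against 701 to 1547 in Kupffer and B nuclei, had a class II UMI in 5.18%, 4.01%, 2.80% and 3.55%. When each nucleus was thinned to 500 UMIs, with none left out, the shares were 27.0%, 18.8%, 62.5% and 45.6% in B nuclei and 14.2%, 20.5%, 26.5% and 10.5% in Kupffer nuclei. In hepatocyte nuclei they were then 0.526%, 0.354%, 0.563% and 0.663%. B and Kupffer shares thus stayed far above those of hepatocytes at equal depth.

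The 4 genes of the sum followed the same pattern one by one. H2-Aa, the alpha chain of I-A, was at 149.8, 81.1, 259.6 and 240.0 CPM in B nuclei, at 27.3, 92.1, 129.7 and 54.9 CPM in Kupffer nuclei and at 1.30 to 2.65 CPM in hepatocyte nuclei. H2-Ab1, its beta chain, was at 152.7, 90.1, 300.6 and 205.7 CPM in B nuclei and at 50.1, 92.1, 142.3 and 42.6 CPM in Kupffer nuclei. H2-Eb1, the beta chain of I-E, was at 118.7, 99.1, 280.1 and 171.4 CPM in B nuclei and at 27.3, 109.4, 75.3 and 31.6 CPM in Kupffer nuclei. For each of the 3 chains the B levels of both LPD libraries were above those of both CD libraries, and the lowest B value lay within the range of the Kupffer values. Bl/6 mice lack a working H2-Ea gene, so an I-E molecule is not formed from H2-Eb1 in this strain.

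Cd74 was at 308.1, 207.2, 771.9 and 668.5 CPM in B nuclei, 141.1, 305.1, 305.5 and 145.5 CPM in Kupffer nuclei and 427.8 and 1208 CPM in conventional dendritic nuclei. It supplied between 40.8% and 57.4% of the class II UMIs in B, Kupffer, sinusoidal endothelial and hepatocyte nuclei. The share was 32.7% (20.7% to 46.7%) in conventional dendritic nuclei of the library labelled CD oncogene and 63.6% (47.8% to 77.6%) in monocyte nuclei. Class II UMIs in hepatocyte nuclei were 44.3% to 49.0% Cd74, which is within the range of the B nuclei, 42.2% to 52.0%.

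Monocyte nuclei of the library labelled LPD oncogene reached 1449 CPM (1053–1945), but this level rested on few nuclei. Of 26 monocyte nuclei 5 had a class II UMI, and they held 44 UMIs, with 19 in 1 nucleus. In conventional dendritic nuclei of the same library 20 of 26 held class II UMIs, 75 in all and at most 14 in 1 nucleus. Plasmacytoid dendritic nuclei were lower, at 313 CPM (156–559) in the library labelled CD control and 232 CPM (111–426) in that labelled LPD oncogene, close to the lower Kupffer values.

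Ciita, the class II transactivator, was high where class II was high. In conventional dendritic nuclei it was at 522.9 CPM (328–792) and 517.9 CPM (290–854), and in B nuclei at 161.1, 90.1, 170.8 and 261.4 CPM. Kupffer nuclei held 77.4 CPM (45.1–124), 69.1 CPM (35.7–121), 71.1 CPM (41.4–114) and 27.5 CPM (16.8–42.4). The first 3 Kupffer values were within counting error of each other, and the library labelled LPD oncogene had the lowest. Hepatocyte nuclei were at 1.497, 1.68, 0.977 and 0.662 CPM. No Ciita UMI was found in T or NK nuclei, of which the 92 T nuclei of the library labelled LPD oncogene give the lowest upper limit that 0 counts allow, 34.9 CPM (3 counts). Over 22 sets of nuclei, Ciita followed the class II sum with a Pearson r of 0.93 on log2(CPM + 5), where sets of the same library share its depth and background.

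Sinusoidal endothelial and stellate nuclei held little class II RNA. Sinusoidal endothelial nuclei were at 45.8 CPM (33.9–60.5), 51.7 CPM (32.4–78.3), 62.6 CPM (41.9–89.9) and 31.3 CPM (20.7–45.6), and stellate nuclei at 41.3, 21.4, 35.6 and 78.3 CPM, the last from 14 UMIs. Both types lay above hepatocyte nuclei in each library, by log2 ratios of 1.35 to 2.86 and of 1.58 to 2.67. The order of sinusoidal endothelial and stellate nuclei changed between libraries. The log2 ratio of the former over the latter was 1.27 (0.26 to 2.33) in the library labelled CD oncogene. It was −1.32 (−2.30 to −0.28) in that labelled LPD oncogene. T nuclei, which in mice are not known for class II, gave 20.2 to 36.7 CPM from 1 to 3 UMIs a library, with an interval reaching 205 CPM. The sinusoidal endothelial and stellate levels lie inside these intervals and could not be told from the T level at this depth. Thinned to 500 UMIs, 1.24% to 2.50% of sinusoidal endothelial nuclei and 0.890% to 2.90% of stellate nuclei had a class II UMI.

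In hepatocyte nuclei the class II level depended on depth. In the library labelled CD control it was 37.5 CPM in nuclei with 1500 to 2500 UMIs, 14.5 CPM up to 5000 UMIs and 7.25 CPM above, and in that labelled CD oncogene 19.5, 10.8 and 5.16 CPM. In the library labelled LPD control the 3 values were 14.6, 8.37 and 16.8 CPM, and in that labelled LPD oncogene 13.8, 13.6 and 8.69 CPM. Deeper hepatocytes thus held less class II per UMI at each step in every library but that labelled LPD control. In the library labelled LPD oncogene the intervals of all 3 values overlapped. Cholangiocyte, mesothelial, vascular endothelial and NK nuclei held 1 to 12 class II UMIs a set, between 18.8 and 103 CPM, with wide intervals.

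Counts over the list were read against all genes. A gene was taken as higher in a type when log2(CPM + 5) was at least 1 above hepatocyte nuclei, a 2-fold difference, in all 4 libraries, among genes that reached 20 CPM and 50 UMIs in 1 of the sets compared. In B nuclei 6 of the 8 members that passed this filter were higher, H2-Aa, H2-Ab1, Cd74, Ciita, H2-K1 and H2-D1, where 5.62% of all genes were. In Kupffer nuclei 2 of 5 were, Cd74 and H2-D1, where 10.2% of all genes were. In sinusoidal endothelial nuclei 1 of 4 was, H2-D1, against 9.27% of all genes, in T nuclei 1 of 4, again H2-D1, against 4.05%, and in stellate nuclei 0 of 4, against 8.07%. Members that fail the filter in every set but the high one pass only where they are high, so these counts are a description. The filter left out H2-Eb1 and Tap1 in B nuclei, the class II chains, Ciita and Tap1 in Kupffer nuclei, and those together with Cd74 in the other 3 types. The left-out members in B and Kupffer nuclei were nonetheless above hepatocytes in each library.

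Other genes of class II presentation were also higher in Kupffer and B nuclei. Of 14 listed genes of class II loading and turnover in the files, 6 passed the filter in Kupffer nuclei and 4 were higher than in hepatocytes: the lysosomal proteases Ctss and Lgmn, which cut the invariant chain and antigens, the thiol reductase Ifi30 and the ubiquitin ligase March1, which removes class II from the surface. Over all genes that passed, 10.2% were higher. In B nuclei 3 of 5 were higher, H2-Ob, Ctss and March1, where 5.62% of all genes were. Each of these genes stayed at or below 18.6 CPM in hepatocyte nuclei and so passed the filter only through the type where it was high, and the counts are a description. March1 was at 981, 432, 1072 and 1496 CPM in B nuclei, and H2-Ob, a chain of the B cell modulator of peptide loading, at 282.7, 144.1, 252.8 and 291.4 CPM, with at most 4.12 CPM in Kupffer nuclei. H2-DMb1, a chain of the loading catalyst, was at 135.7, 90.1, 198.1 and 154.3 CPM in B nuclei and at 18.2 to 71.1 CPM in Kupffer nuclei. H2-DMb2, the other beta chain of that catalyst, was at 36.03 to 85.7 CPM in B nuclei and at most 8.37 CPM in Kupffer nuclei, so H2-Ob and H2-DMb2 were both higher in B than in Kupffer nuclei in every library.

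Of the ligands that T cells read beside the peptide, Cd80, Cd86 and Cd274 were higher in Kupffer nuclei, 3 of 4 that passed, where 10.2% of all genes were. These 3 were at most 3.01 CPM in hepatocyte nuclei and passed only through Kupffer nuclei. Cd86 was at 409.7, 362.7, 573.3 and 550.4 CPM in Kupffer nuclei, at 31.1 to 98.6 CPM in B nuclei and at 0.620 to 2.23 CPM in hepatocyte nuclei. Cd80 was at 95.6, 40.3, 50.2 and 129.0 CPM in Kupffer nuclei. Cd83, which in B cells stabilises class II at the surface, was at 124.4, 45.0, 54.6 and 68.6 CPM in B nuclei and between 18.2 and 173 CPM in Kupffer nuclei. Of the interferon gamma pathway, which induces both classes, the receptor chains Ifngr1 and Ifngr2, the transcription factor Irf8 and the GTPase Gbp8 were higher in Kupffer nuclei, and they too passed only there. Ifng itself had 9 UMIs in all, with no UMI in sinusoidal endothelial, stellate, Kupffer or B nuclei and at most 0.120 CPM in hepatocyte nuclei. Its highest T value, 20.2 CPM, corresponds to 1 UMI.

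Class I RNA was present in every type and varied far less. Summed over H2-K1, H2-D1 and B2m it was, among the 6 types gated in all libraries, lowest in hepatocyte nuclei, at 595, 679, 509 and 553 CPM, with narrow intervals. T nuclei had the highest median, at 2055 CPM (1639–2544), 1374 CPM (1067–1742), 1470 CPM (1050–2001) and 1814 CPM (1541–2122). B nuclei were at 1343, 1540, 1202 and 1046 CPM, Kupffer nuclei at 997, 1117, 1247 and 1012 CPM, sinusoidal endothelial nuclei at 847, 1211, 1202 and 911 CPM and stellate nuclei at 661, 908, 893 and 777 CPM. The hepatocyte values overlapped with those of stellate nuclei, and with no value of Kupffer, B or T nuclei.

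Within each library T nuclei exceeded hepatocyte nuclei by a log2 ratio of 1.79 (1.46 to 2.10), 1.02 (0.65 to 1.36), 1.53 (1.04 to 1.98) and 1.71 (1.48 to 1.94). Kupffer nuclei did so by 0.74, 0.72, 1.29 and 0.87 and sinusoidal endothelial nuclei by 0.51, 0.84, 1.24 and 0.72. For stellate nuclei the log2 ratio was 0.15 (−0.01 to 0.30) in the library labelled CD control and 0.42, 0.81 and 0.49 in the others. Kupffer and sinusoidal endothelial nuclei were neighbours whose intervals overlapped in each library. Monocyte nuclei reached 1943 CPM (1479–2507), conventional dendritic nuclei 1093 and 1519 CPM and NK nuclei 1235 and 1773 CPM, all from 44 to 59 UMIs. Hepatocyte marker RNA was present in these types at the shares given above, and its part in these levels was not tested.

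H2-K1, a heavy chain, was at 283.8, 325.2, 298.4 and 291.6 CPM in hepatocyte nuclei and at 1027, 505.2, 918.6 and 1117 CPM in T nuclei. In Kupffer nuclei it was at 414.3, 454.8, 657.0 and 470.8 CPM and in B nuclei at 602.1, 675.6, 683.1 and 612.8 CPM. H2-D1, the other heavy chain, was at 49.9, 51.0, 55.3 and 57.8 CPM in hepatocyte nuclei. It was at 129.8, 124.6, 228.7 and 155.5 CPM in sinusoidal endothelial nuclei, at 136.6, 172.7, 255.3 and 185.3 CPM in Kupffer nuclei and at 391.4, 161.7, 367.5 and 255.9 CPM in T nuclei. H2-D1 was the member higher by at least 2-fold in every library in sinusoidal endothelial, Kupffer, B and T nuclei alike, with no hepatocyte value in the range of those types. Against hepatocytes its log2 ratio was 1.29 to 2.05 in sinusoidal endothelial and 1.45 to 2.21 in Kupffer nuclei, while that of H2-K1 was 0.44 to 1.02 and 0.48 to 1.14.

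B2m was at 261.5, 302.3, 155.2 and 203.5 CPM in hepatocyte nuclei and at 506.0, 675.6, 300.6 and 270.0 CPM in B nuclei. In Kupffer nuclei it was at 446.1, 489.3, 334.8 and 355.5 CPM. Over all nuclei B2m was thus lower in LPD than in CD libraries in each of these types, which the heavy chains were not. In Kupffer nuclei the interval lay off 0 in 2 of 4 LPD to CD pairs. Among Kupffer nuclei with over 1% mitochondrial UMIs B2m was at 508, 573, 563 and 901 CPM, so the diets overlapped. Hepatocyte B2m by mitochondrial share is given below. Tap1 was at 10.7 to 12.9 CPM in hepatocyte nuclei, at 27.3, 34.5, 54.4 and 41.2 CPM in Kupffer nuclei and at 118.8 and 138.1 CPM in conventional dendritic nuclei. The Kupffer level exceeded that of hepatocytes by log2 ratios of 1.10 (−0.35 to 2.23), 1.61 (0.16 to 2.74), 2.08 (1.14 to 2.88) and 1.95 (1.34 to 2.52), from 6 to 30 UMIs.

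Nlrc5 did not follow the class I genes. It was at 109.7, 95.8, 130.7 and 125.0 CPM in hepatocyte nuclei, a range that overlapped those of Kupffer nuclei, 109.3 to 163.2 CPM, stellate nuclei, 85.6 to 134.2 CPM, and B nuclei, 63.0 to 111.4 CPM. Levels were higher in T nuclei, at 391.4 CPM (224–636), 424.4 CPM (263–649), 257.2 CPM (103–530) and 418.7 CPM (293–580). NK nuclei, at 365.0 CPM (194–624) and 322.4 CPM (139–635), and conventional dendritic nuclei, at 261.4 CPM (131–468) and 379.8 CPM (190–680), lay within the range of the T values. Of the log2 ratios of Kupffer nuclei over hepatocyte nuclei, −0.01 to 0.53, all 4 intervals included 0. Over the 22 sets the Pearson r of Nlrc5 with the class I sum was 0.16 and with the class II sum −0.08, while that of Tap1 was 0.73 and 0.74.

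**Figure D2:**
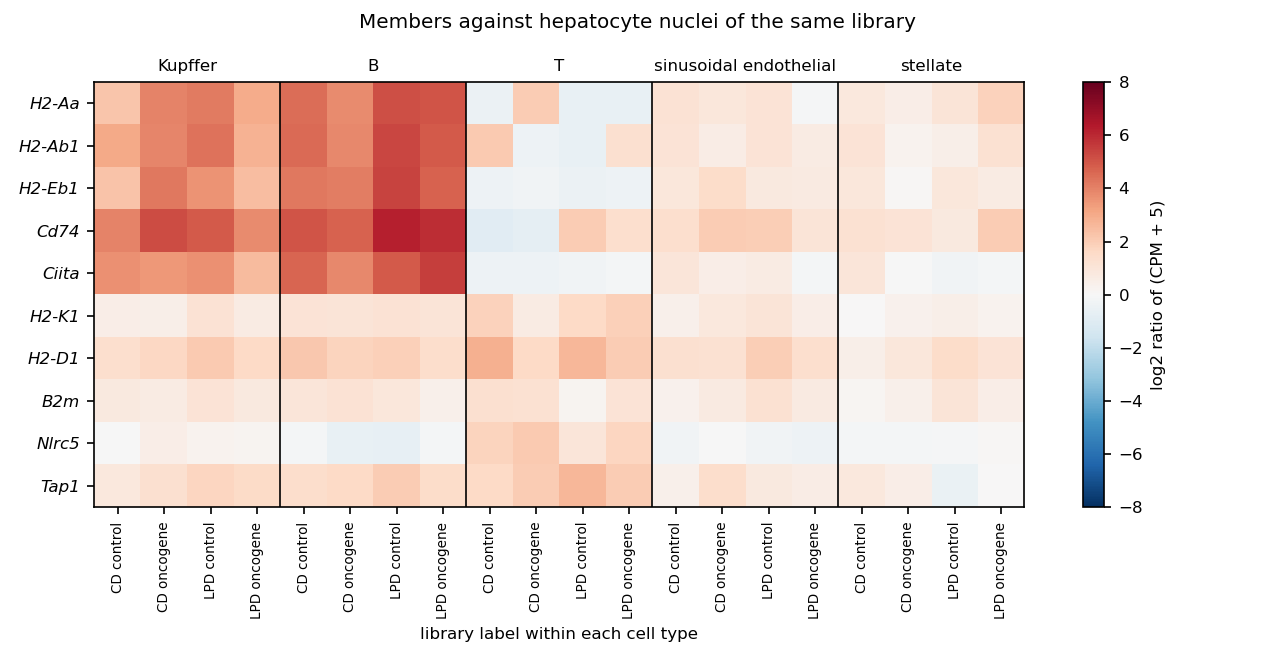
Log2 ratio of (CPM + 5) of each member in 5 cell types over hepatocyte nuclei of the same library (colour scale from −8 to 8); columns are libraries by label. The class II genes and Ciita are red in Kupffer and B nuclei and pale in the rest, whereas H2-D1 is raised in all 4 libraries in Kupffer, B, T and sinusoidal endothelial nuclei and Nlrc5 in T nuclei.

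Among the nonclassical class I genes, H2-Q10 was highest in hepatocyte nuclei and others in T nuclei. H2-Q10, a secreted class I molecule of the liver, was at 496 to 879 CPM in hepatocyte nuclei and at most 486 CPM in the other 5 types. H2-Q6 was at 220.1, 282.9, 220.5 and 209.4 CPM in T nuclei and at 20.6 to 35.3 CPM in hepatocyte nuclei, and H2-Q7 at 293.5, 222.3, 183.7 and 290.8 CPM in T nuclei and at 30.4 to 52.2 CPM in hepatocyte nuclei. These H2-Q genes are close copies, so reads may be split between them. Of 8 genes of this list that passed the filter, 2 were higher in T nuclei, H2-Q6 and H2-Q7, where 4.05% of all genes were. In sinusoidal endothelial nuclei 2 were, H2-Q4 and the Fc receptor Fcgrt, against 9.27% of all genes. In B nuclei 1 was, H2-Q6, against 5.62%. In Kupffer and stellate nuclei 0 were, against 10.2% and 8.07%. Hfe, the class I-like iron regulator, was at 41.0, 5.76, 50.2 and 35.7 CPM in Kupffer nuclei.

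Of the genes for peptide supply and loading, 6 passed the filter, and Tapbp in T nuclei was the only one higher in any of the 5 types. Over all genes 4.05% were higher in T nuclei, and between 5.62% and 10.2% in each of the other types. The immunoproteasome subunit Psmb8 was at 146.8, 60.6, 73.5 and 46.5 CPM in T nuclei and at 2.51 to 5.21 CPM in hepatocyte nuclei, and Tap2 at 73.4, 40.4, 110.2 and 104.7 CPM in T nuclei and at 6.11 to 15.2 CPM in hepatocyte nuclei. Psme2, an activator subunit of the proteasome, was at 24.5, 60.6, 110.2 and 34.9 CPM in T nuclei. These T values came from a few UMIs each. Gbp8, an interferon-induced GTPase, was at 291.3, 207.2, 188.3 and 181.2 CPM in Kupffer nuclei, and Gbp4 at 195.7, 60.6, 36.7 and 162.8 CPM and Ifngr1 at 0, 101.0, 147.0 and 221.0 CPM in T nuclei.

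By Pearson r of log2(CPM + 5) over the 22 sets with at least 50 nuclei, the genes most like the class II sum among 10838 ranked were Syk (0.96), Btk (0.96), Bank1 (0.94), H2-DMb1 (0.94) and Wdfy4 (0.94). Bank1 was a gate marker of B nuclei, and Wdfy4 a check marker of dendritic nuclei. For the class I sum they were Twf2 (0.88), Apobec3 (0.84), Emc2 (0.82), Inpp4b (0.81) and Kif20b (0.81). The sets share libraries, depth and hepatocyte background, so the values rank likeness only.

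In Kupffer nuclei, class II differed between libraries of the same diet, and in opposite directions under the labels. It was lower in the library labelled LPD oncogene than in that labelled LPD control, by a log2 ratio of −1.25 (−1.56 to −0.94) from 200 and 156 UMIs. It was higher in the library labelled CD oncogene than in that labelled CD control, by 1.28 (0.80 to 1.79) from 104 and 54 UMIs. The lower library of each pair was the one that held transgene UMIs. Those libraries, at 246 CPM and 275 CPM, differed by a log2 ratio of 0.16 (−0.28 to 0.62), and those without transgene UMIs, at 599 CPM and 653 CPM, by 0.12 (−0.24 to 0.50).

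The 4 class II genes moved the same way. From LPD control to LPD oncogene the log2 ratio was −1.24 (−1.95 to −0.52) for H2-Aa, −1.74 (−2.49 to −0.996) for H2-Ab1, −1.25 (−2.21 to −0.28) for H2-Eb1 and −1.07 (−1.51 to −0.62) for Cd74. From CD control to CD oncogene it was 1.75 (0.33 to 3.40) for H2-Aa, 0.88 (−0.32 to 2.13) for H2-Ab1, 2.00 (0.62 to 3.61) for H2-Eb1 and 1.11 (0.45 to 1.80) for Cd74. Ciita was lower by −1.37 (−2.38 to −0.35) in the LPD pair and did not differ in the CD pair, at −0.16 (−1.36 to 0.99). The class I sum of Kupffer nuclei differed less, by −0.30 (−0.50 to −0.10) in the LPD pair and 0.16 (−0.12 to 0.45) in the CD pair.

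**Figure D3:**
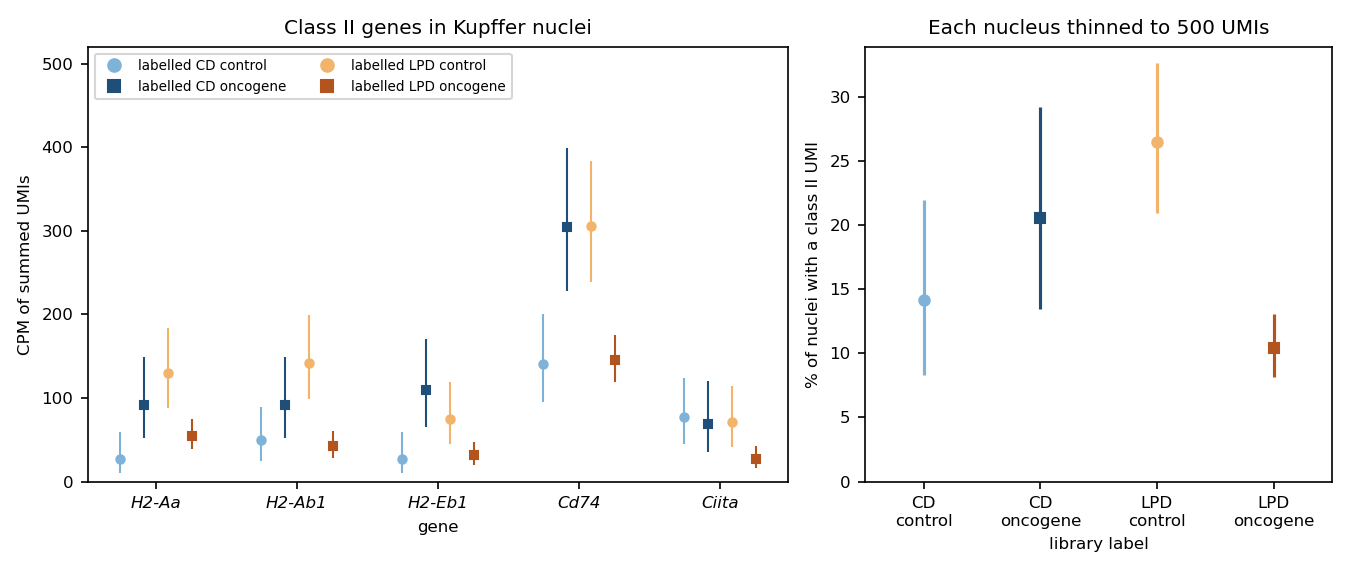
CPM of the class II genes and Ciita in Kupffer nuclei (left) and the share of Kupffer nuclei with a class II UMI after each was thinned to 500 UMIs (right); points are libraries by label and bars are 95% counting intervals. The libraries labelled CD control and LPD oncogene, which held transgene UMIs, are the lower ones of their pairs for H2-Aa, H2-Ab1, H2-Eb1 and Cd74, and their shares are 14.2% and 10.5% against 20.5% and 26.5%.

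Thinned shares in the LPD pair did not overlap, at 26.5% (20.96% to 32.6%) and 10.5% (8.19% to 13.1%), while those of the CD pair did, at 14.2% (8.32% to 21.97%) and 20.5% (13.5% to 29.2%). Class II UMIs were fewer than Kupffer nuclei in each library, so counting alone leaves many nuclei at 0. No class II UMI was found in 84 of 113, 68 of 112, 149 of 234 and 509 of 641 Kupffer nuclei, and the 10% of nuclei with most class II UMIs held 68.5%, 60.6%, 55.1% and 66.5% of them. Those 10% were picked by the same counts, so the shares cannot show a separate class II-bearing subset. At most 17 class II UMIs came from 1 nucleus.

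Among all genes, 0.684% of those that passed the filter were at least 2-fold lower in the library labelled LPD oncogene than in that labelled LPD control, and 4.71% were at least 2-fold lower in that labelled CD control than in that labelled CD oncogene. Both held for 0.34%, 11 of 3231 genes, and Cd74 was among them. Cd74 was in each comparison the 1 member called, of 5, 3 and 5 that passed, and the other class II genes had too few UMIs to enter. The lists around class II gave 0 genes lower in both pairs: of class II loading 5 passed, of T cell ligands 4 and of the interferon gamma pathway 9. Cd80 went the other way, higher in the library labelled LPD oncogene by a log2 ratio of 1.28, and both libraries with transgene UMIs lay above both without in the values given earlier.

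Kupffer markers were high in each library. Clec4f, a Kupffer-specific lectin, was at 1907, 1197, 2076 and 1518 CPM, and Timd4, a receptor of long-resident Kupffer cells, at 560, 403, 548 and 692 CPM. The 5 check markers summed to 4015, 3719, 5612 and 5846 CPM. Per 100 of their UMIs there were 6.12, 16.1, 11.6 and 4.70 class II UMIs, so both pairs kept their direction. Gate markers of other class II-bearing cells were mostly at 0. Nuclei that passed several gates had been set aside, so these low values are partly set by the gates. Of 8 gate markers of conventional dendritic cells 6, 6, 7 and 5 had no UMI, Flt3 among them in every library. Their sum was 182, 167, 167 and 165 CPM, mainly Clec9a. Of 8 gate markers of monocytes 4, 6, 5 and 4 were at 0, with sums of 109, 57.6, 121 and 117 CPM. Of 8 gate markers of B cells 6, 7, 6 and 6 were at 0, Ms4a1, Cd79a, Cd79b and Pax5 among them in every library, and Bank1 gave nearly all of the sum of 1024, 622, 1511 and 1524 CPM. None of these gate marker sums was lower in both libraries with transgene UMIs than in both without. With the check markers added, the dendritic sum was 1789, 1422, 2678 and 2211 CPM, mainly Cadm1, which hepatocyte nuclei also held. Among these check markers Wdfy4 was at 187, 184, 418 and 325 CPM. The monocyte sum was then 291, 150, 406 and 290 CPM. Both sums were lower under each oncogene label than under the control label of the same diet. The part of these markers in the class II values was not tested.

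The LPD pair kept its direction in nuclei with no UMI of any other type's gate marker, at 566 and 231 CPM, whereas the CD pair turned, at 465 and 287 CPM from 15 and 26 nuclei. Bank1 counts among those markers, so this choice also removes Kupffer nuclei for a gene that Kupffer nuclei themselves held. Fewer class II-bearing Kupffer cells and less class II RNA per cell cannot be told apart from such sums.

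In B nuclei, class II was higher in both LPD libraries than in both CD libraries. The log2 ratio of the sum was 1.14 (0.88 to 1.40), 1.76 (1.32 to 2.21), 0.82 (0.57 to 1.06) and 1.43 (1.004 to 1.88) over the 4 LPD to CD pairs, which share libraries and are not independent. For H2-Aa and Cd74 the log2 ratio was 0.68 to 1.68 and 1.12 to 1.90, with intervals above 0 in all 4 pairs. For H2-Ab1 it was 0.43 to 1.74, and the lowest, 0.43 (−0.16 to 1.02), was within counting error. For H2-Eb1 it was 0.53 to 1.499, with 2 pairs within counting error, at 0.53 (−0.13 to 1.19) and 0.79 (−0.20 to 1.90). For Ciita it was 0.08 to 1.54, likewise with 2, at 0.08 (−0.66 to 0.79) and 0.92 (−0.19 to 2.15). Cd74 was the 1 member of 7 that passed to be at least 2-fold higher in all 4 pairs, as were 2.43% of all genes, and 0 members were 2-fold lower, as were 2.64%. The hepatocyte background moved with the diets, at 90.5% and 84.2% against 30.4% and 22.3% of the hepatocyte level. Per 100 UMIs of the B check markers, class II UMIs numbered 10.7 and 10.8 under CD and 21.8 and 15.4 under LPD. Of these markers Bach2, at 3856, 2558, 4550 and 5211 CPM in B nuclei, was also at 944, 444, 595 and 451 CPM in hepatocyte nuclei, so the background adds to this denominator as well. The part of the background in the difference was not tested. B2m was lower in LPD in all 4 pairs, by −1.32 to −0.75, and the class I sum by −0.56 (−0.85 to −0.27) to −0.16 (−0.42 to 0.09), of which the last was within counting error.

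In Kupffer and sinusoidal endothelial nuclei no member separated the diets by 2-fold. Of 5 members that passed in Kupffer nuclei 0 were higher and 0 lower in all 4 pairs, against 1.92% and 1.3% of all genes, and of 4 in sinusoidal endothelial nuclei 0 and 0, against 1.68% and 2.25%. The class I sum of sinusoidal endothelial nuclei was higher in LPD in 2 of 4 pairs, from −0.41 (−0.57 to −0.25) to 0.50 (0.35 to 0.66). Around the members, Ctss was higher in Kupffer nuclei under LPD, at 200.3, 213.0, 585.9 and 506.5 CPM, a log2 ratio of 1.23 to 1.53 over the pairs. H2-T23, the nonclassical class I molecule Qa-1 that NK receptors read, was higher in sinusoidal endothelial nuclei under LPD, at 24.3, 11.8, 86.3 and 61.5 CPM, a log2 ratio of 1.18 to 2.45. For both genes all LPD values lay above all CD values. In sinusoidal endothelial nuclei of the library labelled CD oncogene 3 counts correspond to 7.05 CPM, so its H2-T23 value came from few UMIs. Of sinusoidal endothelial nuclei 521 of 560, 219 of 286, 65 of 450 and 114 of 806 had over 1% mitochondrial UMIs. The part of this share in the H2-T23 difference was not tested.

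Over hepatocyte nuclei of any mitochondrial share, the class I sum was lower in both LPD libraries. The log2 ratios ran from −0.42 (−0.45 to −0.38) to −0.11 (−0.14 to −0.07). The members did not share this direction. B2m was lower in all 4 pairs, by −0.96 to −0.36, H2-D1 higher by 0.12 to 0.21, Nlrc5 higher by 0.19 to 0.45 and H2-K1 split, from −0.16 to 0.07. Of the 4 members that passed, 0 were 2-fold higher and 0 were 2-fold lower in all 4 pairs, as were 2.3% and 1.43% of all genes. Over all genes the median was 0.19, so H2-D1 and Nlrc5 lay near it. The class II sum was higher by 0.30 to 0.78, at levels of 7.14 to 12.3 CPM.

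Class I in hepatocyte nuclei moved with the share of mitochondrial UMIs, which is in use as a quality measure for nuclei. In nuclei with at most 1%, from 1% to 5% and over 5% mitochondrial UMIs the class I sum was 333, 543 and 875 CPM in the library labelled CD control and 345, 934 and 1650 CPM in that labelled CD oncogene. It was 477, 1410 and 2789 CPM in that labelled LPD control and 525, 1280 and 2676 CPM in that labelled LPD oncogene, where 42 and 29 nuclei were in the last class. The level was therefore higher with each step in each of the 4 libraries. In sinusoidal endothelial nuclei the class I sum was likewise 446, 816, 1073 and 792 CPM at up to 1% and 990, 1430, 1918 and 1659 CPM above it.

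**Figure D4:**
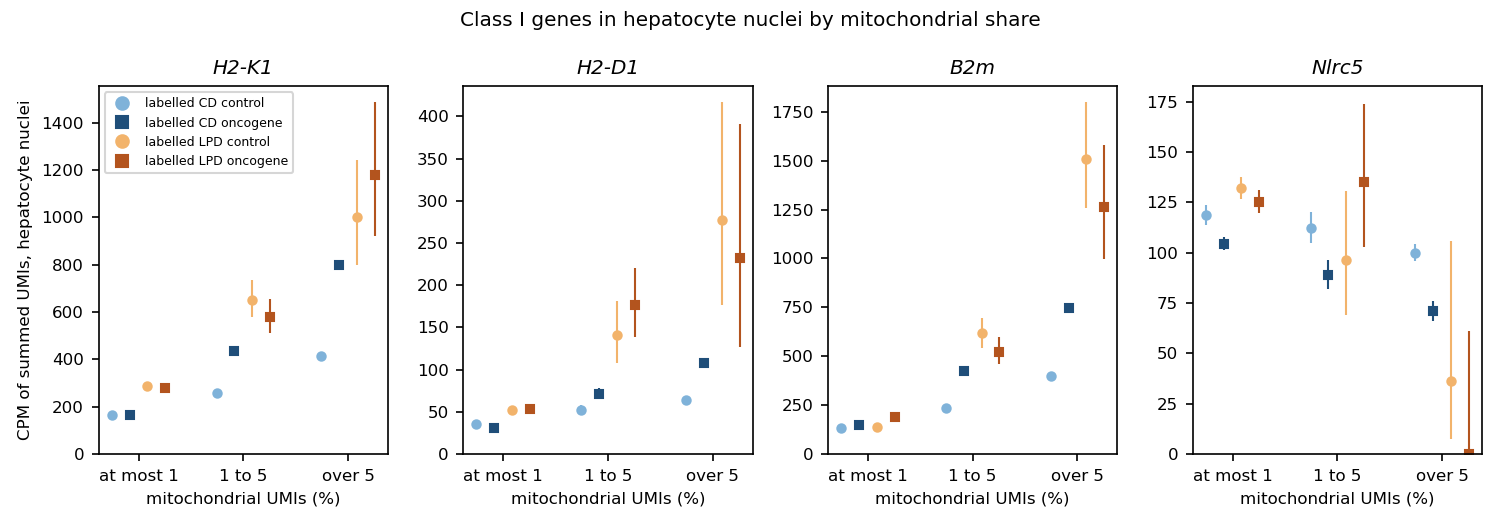
CPM of H2-K1, H2-D1, B2m and Nlrc5 in hepatocyte nuclei by mitochondrial share of UMIs (at most 1%, 1% to 5%, over 5%); points are libraries by label and bars are 95% counting intervals, smaller than the point where not seen. H2-K1, H2-D1 and B2m are higher with each step in every library, while Nlrc5 in the CD libraries is lower, from 118 to 99.95 CPM and from 104 to 71.0 CPM.

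Between the CD hepatocytes over 5% and those at most 1%, the log2 ratio of (CPM + 5) was 1.30 and 2.23 for H2-K1, 0.76 and 1.66 for H2-D1 and 1.54 and 2.29 for B2m, with the library labelled CD control first. For Nlrc5 it was −0.23 and −0.52, close to the medians over all genes of −0.24 and −0.32. H2-K1 and B2m were among the 0.936% of 6839 genes that were at least 2-fold higher in both, and no member was among the 0.307% that were 2-fold lower. The genes with the largest ratios, named after their values were seen, were RNAs of secreted liver proteins, Serpina1d, Hp, Serpina1e, Mup20 and Apoe. H2-K1 and B2m moved with them, and Nlrc5 did not.

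The diet comparison of class I depended on this share. At up to 1% mitochondrial UMIs the class I sum was higher in LPD by 0.47 to 0.66 over the 4 pairs and H2-K1 by 0.76 to 0.81, at 164 and 166 CPM in the CD and 287 and 280 CPM in the LPD libraries, whereas over all nuclei the sum was lower. B2m was then between −0.11 and 0.51. In these nuclei the difference of H2-K1 also moved with depth, from −0.11 to 0.04 at 1500 to 2500 UMIs, to 0.21 to 0.41 up to 5000 UMIs and 0.56 to 0.81 above. Of hepatocyte nuclei 39.2%, 62.8%, 96.2% and 95.7% had at most 1% mitochondrial UMIs. From 1% to 5% the class I sum was higher in LPD by 0.46 to 1.38 over the 4 pairs and B2m by 0.30 to 1.40. Over 5%, where LPD nuclei were few, the sum was higher by 0.70 to 1.67 and B2m by 0.76 to 1.92. The sum was thus lower in LPD over all nuclei but higher within each mitochondrial class. At up to 1% and 1500 to 2500 UMIs it was lower, by −0.32 to −0.06. The part of the mitochondrial share in the difference between diets was not tested.

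Hepatocyte nuclei with a transgene UMI held less class I RNA than the rest, with a smaller difference among deep nuclei of low mitochondrial share. In the library labelled CD control 85 hepatocyte nuclei had a transgene UMI, and their class I sum was 359 CPM against 599 CPM in the other 6948, a log2 ratio of −0.74 (−0.91 to −0.57). H2-K1 was at 165 against 286 CPM and B2m at 158 CPM, a log2 ratio of −0.79 (−1.05 to −0.55) and −0.74 (−0.999 to −0.49), and Nlrc5 at 83.8 CPM, −0.39 (−0.76 to −0.05). The median mitochondrial share was 0.665% in nuclei with a transgene UMI and 1.41% in the others. Among nuclei with at least 5000 UMIs and at most 5% mitochondrial UMIs, 52 with and 2043 without a transgene UMI, the class I sum was 300.3 and 344.6 CPM, −0.20 (−0.42 to 0.01), and H2-K1 −0.24 (−0.56 to 0.07). Nlrc5 was at −0.36 (−0.78 to 0.02), close to its value over all nuclei. These differences were within counting error. Over all hepatocyte nuclei H2-Q10 was at 867 CPM (804–933) with and 879 CPM (871–888) without a transgene UMI, with overlapping intervals. Among the deep nuclei of low mitochondrial share it was higher with a transgene UMI, by 0.15 (0.02 to 0.28). The median mitochondrial share was then 0.515% and 0.524%, while the median depth still differed, at 8813 and 7861 UMIs. Class II UMIs in transgene-bearing hepatocytes numbered 5, 6.07 CPM (1.97–14.2) against 9.73 CPM.

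Pericentral and periportal hepatocyte nuclei, separated by their zonation genes, differed in class I in the CD libraries, and less so at a low mitochondrial share. The study reports that hepatocytes expressing the oncogenes took on gene expression like that of pericentral cells. Such nuclei can fall in the pericentral set of the libraries labelled CD control and LPD oncogene, which held transgene UMIs. Their part in the differences was not tested. The class I sum was lower in pericentral nuclei by log2 ratios of −0.44 (−0.47 to −0.40) and −0.97 (−1.02 to −0.92) in the CD libraries. In the LPD libraries the log2 ratio was 0.31 (0.19 to 0.42) and 0.06 (−0.03 to 0.15). At up to 1% mitochondrial UMIs the 4 values were −0.18, −0.41, 0.03 and 0.00, so the CD libraries kept the direction with a smaller difference. Nlrc5 was lower in pericentral nuclei by −0.20, −0.30 and −0.27 in all but the library labelled LPD control, where its log2 ratio was 0.06 (−0.20 to 0.30).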

How the data were processed

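Nuclei from frozen livers were sequenced with the 10x 3′ kit, and the authors deposited UMI counts per gene and nucleus, 1 matrix a library. They used Cell Ranger on mm10 with human c-MET and CTNNB1 added, and Seurat 5, as the submitters' processing notes and the study's methods name them. Whether intronic reads and the strand were used is not given in the sources used here. The study's filter of 200 to 7000 genes and at most 21% mitochondrial UMIs was applied here. Doublets were not called. Nuclei with UMIs of at least 2 gate markers of a type, making up at least 20 of every 10000 UMIs, were assigned to it, and those passing several such gates were set aside. Hepatocyte nuclei had at least 1500 UMIs, a hepatocyte marker level of at least 50% of the median, and fewer than 10 UMIs of other gate markers in every 10000. Zones were set by pericentral and periportal marker UMIs, at least 5 in a nucleus, with a pericentral share of at least 75% or at most 25%. UMIs were summed by type and library. Intervals are exact Poisson, exact conditional and Clopper-Pearson intervals at the 95% level. Cell type markers were checked with genes outside the gates. With 1 library a group no test was made. The named genes were the 10 members, list genes past 2-fold over all LPD to CD pairs or between the LPD libraries, the 3 genes of each list with the highest peak over the median type, and the 5 genes most like each sum. Other list genes were named after their values were seen. Of 79 genes on 5 pathway lists 73 were in the files. Results for some list genes are not reported here. Members, lists and gate thresholds were chosen with earlier results of these data known. The calculations were tested on simulated data. Python 3.11.15, scipy 1.17.1, pandas 2.3.3 and edgeR 4.0.16 (TMM factors only) were used.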

Additional observations from a re-analysis of the deposited data

Results flagged for a closer look

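The class II sum in Kupffer nuclei moved in opposite directions in the 2 pairs of libraries as labelled. From the library labelled LPD control to that labelled LPD oncogene the log2 ratio was −1.25, and from the library labelled CD control to that labelled CD oncogene it was 1.28. The difference between the pairs was not tested, since there was 1 library a group. The transgene UMIs, 100 and 6, were in the libraries labelled CD control and LPD oncogene, so in both pairs the library with transgene UMIs had the lower class II level.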

How the results depend on the processing

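Each value below is the mean log2 ratio over libraries or pairs, the mean share over libraries, or a count of list genes. Of 83 values under other settings 43 were taken as unchanged and 40 were not. For ratios and shares, unchanged means within the counting interval of the reported value. Counts of list genes have no such interval, and those of Kupffer and B nuclei with no filter on low values were taken as changed. The sign changed in 11, of which 8 were alternatives to the 2 values whose own interval included 0, Kupffer class II and sinusoidal endothelial class I in LPD over CD. The cause was not tested. No paired analysis was possible because there was 1 library per group, and for the same reason no replicate could be left out. Class II in B over hepatocyte nuclei was 6.52, and became 6.80 without nuclei rich in hepatocyte RNA, 6.11 with TMM factors and 6.33 as a mean over nuclei. In Kupffer nuclei it was 5.33, and became 5.59, 5.03 and 5.14 under the same settings and 5.15 without Cd74. Class I in sinusoidal endothelial over hepatocyte nuclei was 0.83, and became 0.76 with 1 more gate marker, 1.11 with at least 500 genes and at most 5% mitochondrial UMIs, 0.70 without nuclei rich in hepatocyte RNA and 0.63 with TMM factors. In T nuclei it was 1.51, and became 1.78 with the stricter nucleus filter, 0.75 with TMM factors and 1.69 without B2m. The Kupffer class II ratio of the library labelled LPD oncogene over LPD control, −1.25, stayed within its interval under all 9 other settings. That of CD oncogene over CD control, 1.28, became 1.76 without nuclei rich in hepatocyte RNA, 0.75 as a mean over nuclei, 2.22 at up to 1% mitochondrial UMIs, from 11 and 34 nuclei, and −0.69 in the 15 and 26 nuclei without markers of other types. Kupffer class II in LPD over CD was 0.14, and became −0.29 with 1 more gate marker, −0.31 without nuclei rich in hepatocyte RNA, −0.43 per check marker UMI and −0.016 both at up to 1% mitochondrial UMIs and without markers of other types. Hepatocyte class I in LPD over CD was −0.26. It became 0.34 with the stricter nucleus filter, 0.56 at up to 1% mitochondrial UMIs, −0.44 with TMM factors, −0.35 as a mean over nuclei and −0.011 without B2m. Sinusoidal endothelial class I in LPD over CD was 0.05, and became 0.16 with 1 more gate marker, −0.093 with TMM factors, −0.069 as a mean over nuclei, 0.20 without B2m, −0.79 per check marker UMI and 0.61 at up to 1% mitochondrial UMIs. The share of nuclei with a class II UMI, at 57.3% in B, 30.5% in Kupffer, 4.22% in sinusoidal endothelial and 3.88% in hepatocyte nuclei, was 38.5%, 17.9%, 1.87% and 0.526% when thinned to 500 UMIs, and at 1000 UMIs 47.2% in B and 1.12% in hepatocyte nuclei. With no filter on low values 21 list genes in place of 12 were higher in Kupffer nuclei and 21 in place of 7 in B nuclei. The settings by check marker UMI, by up to 1% mitochondrial UMIs and without markers of other types, and all those of the CD pair, were chosen after the data were seen.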
